A study of Homo sapiens with 12 samples.

Results

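CDC2 and 9 genes that build, switch on or hold back its kinase were followed in CD133+ and CD133- cells of 3 gastric cancer cell lines. The 10 genes, out of 34595 with a value on the arrays, are CDC2 itself, the cyclins CCNA2, CCNB1 and CCNB2, the phosphatases CDC25A, CDC25B and CDC25C, the inhibitory kinases WEE1 and PKMYT1, and the kinase PLK1. CDC2 was chosen by its signal-to-noise ratio (SNR) between the fractions on these same arrays, where it stood highest, and the other 9 were taken by their role around it. The difference of CDC2 between CD133+ and CD133- cells therefore describes what it was chosen for, and no test of it is given. KATO-III, SNU-216 and SNU-601 are established lines, and from each line the top 10% of cells by fluorescence of an anti-CD133 antibody were collected as CD133+ and the bottom 6% as CD133-, with no treatment in either fraction. The cells between both gates were not profiled, and each line stands alone, so that nothing here replicates a line. Each of the 6 sorted populations was hybridized on 2 Illumina HT-12 v3 BeadChip arrays, 12 in all. The sources used here do not say whether the 2 arrays of a population come from separate sorts, so the spread between them may be technical. The p-values within and between lines measure that spread alone, and those over all lines also take in how the difference between fractions varies from line to line. The deposited description of the study names SNU201 where the labels of the arrays have SNU-216.

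Median intensity lay between 26.0 and 27.1 on the arrays, and r between the arrays of a population lay between 0.993 and 0.995 across genes, which are not independent replicates. PROM1, which encodes CD133, lay between 4677 and 9513 on the CD133+ arrays and between 1315 and 4493 on the CD133- arrays, and within each line every CD133+ array lay above both CD133- arrays. All 6 epithelial rows checked, TACSTD1 and EPCAM (names of the same gene), CDH1, KRT8, KRT18 and KRT19, were above the measurement floor of 32.7 on all 12 arrays. Among leukocyte markers, PTPRC and CD3E exceeded the floor on 0 arrays and CD14 on 6, with 835 to 1242 on the KATO-III arrays and at most 36.9 elsewhere. Among fibroblast markers, DCN and PDGFRB exceeded the floor on 0 arrays, COL1A2 was above it on 1 and COL1A1 on 7 (at most 196).

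CDC2, now named CDK1, is the kinase that drives cells into mitosis. It works only when bound to an A- or B-type cyclin, and cyclin B with CDC2 forms the mitosis-promoting complex. WEE1 in the nucleus and the membrane-bound PKMYT1 phosphorylate CDC2 and keep the complex silent through G2, the CDC25 phosphatases remove these phosphates, and PLK1 activates CDC25C and marks WEE1 for destruction. Transcripts of several of these genes are known to accumulate in G2 and mitosis, in part through promoter elements named the CCAAT box, bound by NF-Y, and the cell cycle homology region, whose core reads TTTGAA.

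The promoters are shown because the question put to the data is whether the members move together, and these elements are the known shared sequence of G2 genes. Sequences and coordinates are those of RefSeq on GRCh38.p14, in windows from 250 bases before to 50 bases after each annotated start. Of the 10 genes, 8 matched the table (CDC2 as CDK1), with 15 windows, some of which overlap. WEE1 and PKMYT1 had no entry. The stretch just before the start is printed 5′ to 3′ in the direction of the gene, and for a start that lies inside another transcript of the gene only the last 30 bases. The 7 stretches shown are those of CDC2, the cyclins, PLK1 and the first start of CDC25C, and all of them hold a motif. Starts are numbered by ascending coordinate, so the first start of CDC25C, on the minus strand, lies downstream of its other starts. The 8 stretches of CDC25A, CDC25B and the other starts of CDC25C are not shown, and 5 of these hold none. Capitals mark CCAAT and TTTGAA, on either strand, where the other strand reads ATTGG and TTCAAA.
CDC2, first start, chr10:60778166-60778330, plus strand: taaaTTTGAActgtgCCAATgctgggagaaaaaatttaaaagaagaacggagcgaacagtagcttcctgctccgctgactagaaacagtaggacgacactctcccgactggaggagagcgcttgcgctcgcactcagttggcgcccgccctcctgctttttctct
CDC2, second start, chr10:60778448-60778477, plus strand: ccctttagcgcggtgagTTTGAAactgctc
CCNA2, chr4:121823884-121824048, minus strand: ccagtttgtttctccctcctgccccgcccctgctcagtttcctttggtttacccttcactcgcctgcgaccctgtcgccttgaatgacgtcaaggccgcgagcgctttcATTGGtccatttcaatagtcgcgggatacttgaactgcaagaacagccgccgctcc
CCNB1, chr5:69166985-69167149, plus strand: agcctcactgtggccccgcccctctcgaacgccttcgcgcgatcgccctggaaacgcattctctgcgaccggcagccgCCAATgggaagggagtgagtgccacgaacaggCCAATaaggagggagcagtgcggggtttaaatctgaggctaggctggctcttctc
CCNB2, chr15:59104981-59105145, plus strand: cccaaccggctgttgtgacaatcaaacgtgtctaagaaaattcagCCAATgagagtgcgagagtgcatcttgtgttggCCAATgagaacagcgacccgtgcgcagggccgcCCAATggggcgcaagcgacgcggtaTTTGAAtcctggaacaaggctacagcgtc
CDC25C, first start, chr5:138331805-138331834, minus strand: TTTGAAtggtcaacgcctgcggctgttgat
PLK1, chr16:23678724-23678888, plus strand: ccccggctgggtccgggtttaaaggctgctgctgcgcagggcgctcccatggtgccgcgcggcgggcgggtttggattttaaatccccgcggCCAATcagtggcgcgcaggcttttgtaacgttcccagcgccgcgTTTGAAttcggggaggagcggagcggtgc

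At least 1 CCAAT lay in a window of each of the 8 matched genes, in 11 of their 15 windows, where 34.6% of all 35116 windows held it. TTTGAA lay in windows of CDC2, CCNB2, CDC25C and PLK1, in 6 of the 15, against 15.2% of all windows, and those 6 windows also held CCAAT, against 5.9% of all. The windows of the first and second start of CDC25C overlap and hold the same TTTGAA site, which is thus counted in both. The variant TTCGAA, which reads the same on both strands, was met in 1 gene, CDC25B, against 1.45% of all windows. With the given strand alone, CCAAT remained in windows of 5 genes. No match overlapped a match of another motif in the members' windows. A match is a run of letters and not a measured binding site. Only these exact runs were searched, so a window without a match, such as that of CCNA2 for TTTGAA, may hold another form of the element. CDC2 (chosen for its difference between fractions), CCNB2, CDC25C and PLK1 hold both motifs. Their log2 differences between CD133+ and CD133- cells were 0.96, 0.25, 0.32 and 1.20 in KATO-III. They were 0.89, -0.02, 0.23 and -0.56 in SNU-216 and 0.71, 0.45, 0.44 and 0.75 in SNU-601. CCNA2, CCNB1, CDC25A and CDC25B hold CCAAT and no TTTGAA match. Their differences were 0.78, 1.33, 0.12 and 0.07 in KATO-III and -0.17, 0.03, 0.10 and 0.00257 in SNU-216. In SNU-601 they were 0.57, 0.86, 0.00484 and -0.26. Whether either motif goes with these differences was not tested.

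The CD133+ cells of all 3 lines had more CDC2 transcript than their CD133- counterparts, by 1.95-fold in KATO-III, 1.86-fold in SNU-216 and 1.63-fold in SNU-601. Its intensity on the arrays, which the authors quantile-normalized and which is linear, was 1744 and 1689 on the CD133+ arrays of KATO-III, against 959 and 811 on the CD133- arrays. In SNU-216 it was 1886 and 1803 in CD133+ and 1035 and 954 in CD133- cells, and in SNU-601 2039 and 1838 in CD133+ and 1267 and 1113 in CD133- cells. The lowest CD133+ array stood above the highest CD133- array, so all 6 lay apart whatever the line. This separation is part of what CDC2 was chosen for, so it is not compared with the regulators. The means were 1717 ± 39.1 (SD, n = 2 arrays) and 885 ± 104 in KATO-III, 1845 ± 58.6 and 995 ± 57.0 in SNU-216, and 1939 ± 142 and 1189.9 ± 109 in SNU-601. In the order of means, the CD133+ populations ran SNU-601, SNU-216, KATO-III and the CD133- populations followed in the same order of lines. The arrays of SNU-601 and SNU-216 overlapped in the CD133+ fraction, as did those of SNU-216 and KATO-III in the CD133- fraction. In sorted populations measured in bulk, fewer cells that hold a transcript and less of it per cell cannot be told apart, and the cell cycle phase of the cells was not measured.

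The SNR sets the gap between the mean linear intensity of each fraction, over its 6 arrays, against the summed SDs of both. It was 2.91 for CDC2, the highest of 34595 genes, 1.10 for CCNB1 and 0.951 for CCNB2, just above and just below the SNR of 1 used as a threshold for genes that differ between fractions. The ratios of the other 7 regulators lay between -0.201 (CDC25B) and 0.332 (CDC25C). Differences between lines enter the SDs of this ratio. With each gene centred on the mean of its line, the ratio was 5.37 for CDC2, 1.69 for CDC25C and 1.16 for CCNB1. CDC2 was chosen by its SNR, so its lead over the regulators in this ratio is part of that choice.

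**Figure D1:**
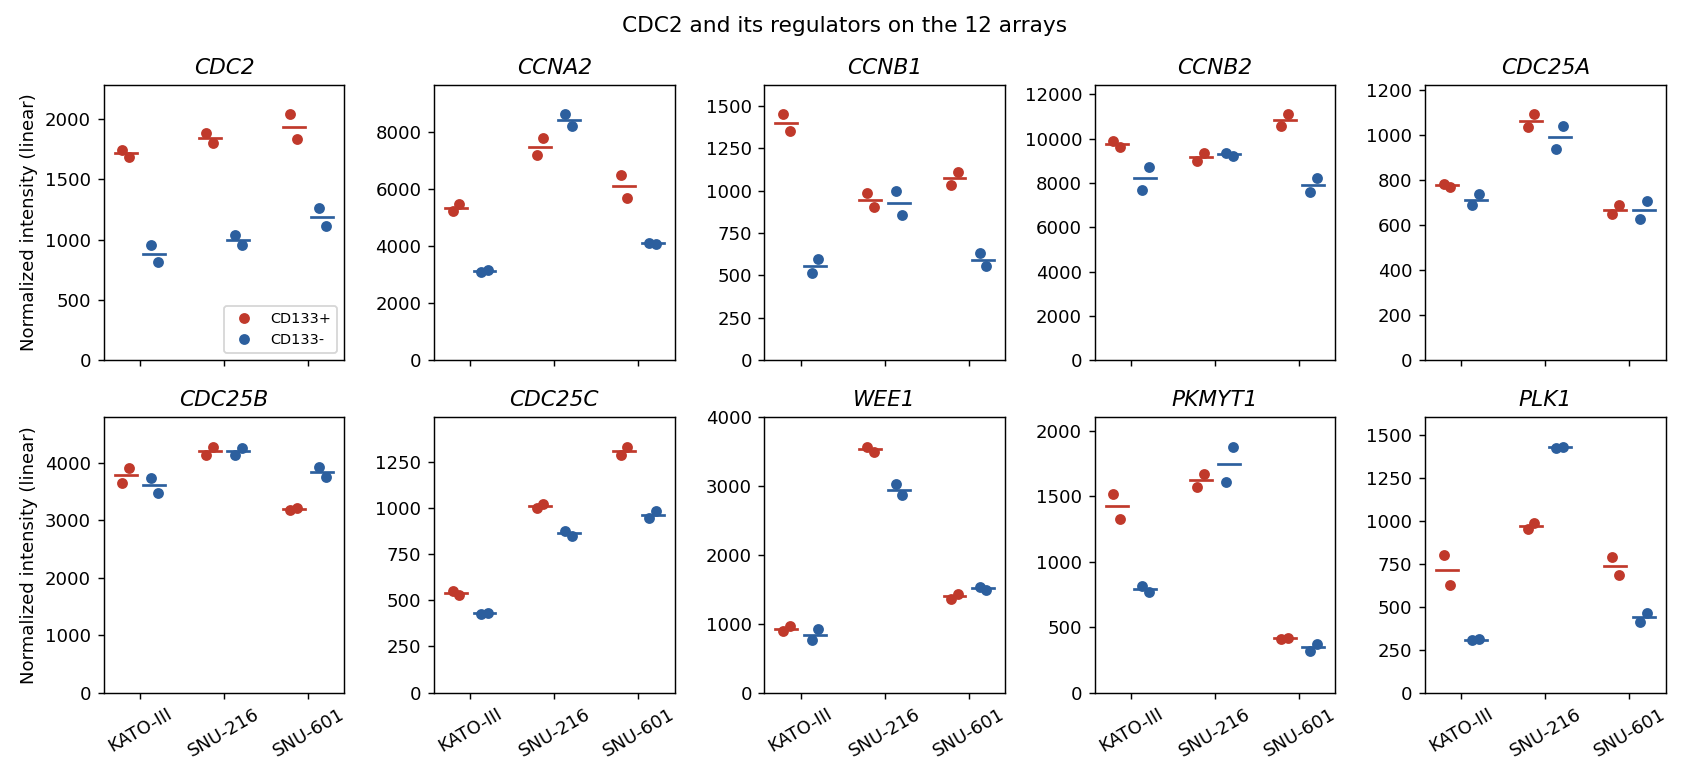
Normalized intensity (linear, y axis from 0) of CDC2 and its 9 regulators on the 12 arrays, by cell line, with CD133+ arrays in red and CD133- arrays in blue. Points are arrays and short lines the means of 2 arrays. CDC2, chosen for its difference between fractions, is apart in all 3 lines (lowest CD133+ array 1689, highest CD133- array 1267). CCNA2 and PLK1 turn over in SNU-216.

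The cyclins were higher in CD133+ cells of KATO-III and SNU-601, and none of the 3 was called higher in SNU-216. CCNB1, the main partner of CDC2 in mitosis, read 1449.8 and 1349.7 on the CD133+ arrays of KATO-III, against 517 and 596 on the CD133- arrays. It read 1035 and 1112 against 631 and 553 in SNU-601, and 987 and 902 against 999 and 857 in SNU-216. The fractions lay apart in KATO-III and SNU-601 and overlapped in SNU-216. Its log2 change, CD133+ minus CD133-, was 1.33 in KATO-III (standard error 0.106, limma adjusted p = 2.0e-05), 0.86 in SNU-601 (adjusted p = 0.00119) and 0.03 in SNU-216 (adjusted p = 0.975). These tests used limma on log2 intensities, with the 6 populations as separate means, adjusted by Benjamini-Hochberg over the 20147 genes that exceeded the floor on 2 or more arrays. The 3 changes differed between the lines (adjusted p = 0.000431, limma's moderated F-test).

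CCNA2, whose protein serves both S phase and the entry into mitosis, read 5253 and 5469 against 3109 and 3150.2 (CD133+ against CD133-) in KATO-III, and 6493 and 5711 against 4129 and 4088 in SNU-601. In SNU-216 the order was the opposite, with 7196 and 7806 in CD133+ and 8628 and 8238 in CD133- cells, which did not overlap. Its log2 change was 0.78 in KATO-III (limma adjusted p = 2.8e-05), 0.57 in SNU-601 (adjusted p = 0.000915) and -0.17 in SNU-216 (standard error 0.0651, adjusted p = 0.0870). The difference in SNU-216 was not called on all 12 arrays, and it was called without SNU-601 CD133+ replicate 1 or replicate 2 (adjusted p = 0.0392 in each fit). The difference between the lines passed the test (adjusted p = 0.00015, limma's F-test).

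CCNB2 encodes a second B-type cyclin. It read 9870.1 and 9634 against 7699.7 and 8720.0 (CD133+ against CD133-) in KATO-III, and 10561 and 11086 against 7591 and 8222 in SNU-601. In SNU-216 its arrays read 9002 and 9364 in CD133+ and 9351 and 9220.0 in CD133- cells and overlapped. The log2 change was 0.25 in KATO-III (limma adjusted p = 0.0137), 0.45 in SNU-601 (adjusted p = 0.00225) and -0.02 in SNU-216 (adjusted p = 0.981), and it differed between the lines (adjusted p = 0.00794). In KATO-III the call was lost without CD133+ replicate 1 (adjusted p = 0.0712) and without CD133- replicate 1 (adjusted p = 0.0884).

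Of the phosphatases, CDC25C alone was called higher in the CD133+ fraction of every line. This phosphatase acts on CDC2 at the entry into mitosis. It read 549 and 526.5 against 427 and 434 (CD133+ against CD133-) in KATO-III, 1002 and 1021 against 879 and 848 in SNU-216, and 1288 and 1333 against 948 and 982 in SNU-601. No pair of populations next to each other in the order of its means overlapped, and the fractions lay apart within each line. The log2 change was 0.32 in KATO-III (limma adjusted p = 0.000936), 0.23 in SNU-216 (adjusted p = 0.00848) and 0.44 in SNU-601 (adjusted p = 0.000867), each with a standard error of 0.05005. A difference between these changes was not called (adjusted p = 0.0877). The change of CDC2 was 0.96, 0.89 and 0.71 on the same scale. CDC2 was chosen for that difference, so the sizes are not compared.

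CDC25A, which acts mainly at the start of S phase, was not called in any line, with log2 changes of 0.12 in KATO-III, 0.10 in SNU-216 and 0.00484 in SNU-601 (limma adjusted p = 0.260, 0.400 and 1). It read 783 and 770.0 against 688 and 738 in KATO-III, 1037 and 1092 against 939 and 1043 in SNU-216, and 648 and 689.8 against 628.5 and 707 in SNU-601, so the fractions overlapped in SNU-216 and SNU-601. CDC25B, which starts the activation of CDC2 at centrosomes, fell in CD133+ cells of SNU-601 alone. It read 3179 and 3221 in CD133+ and 3928 and 3747 in CD133- cells there, a log2 change of -0.26 (limma adjusted p = 0.0105). The call was lost without SNU-601 CD133+ replicate 1 (adjusted p = 0.0554) and without SNU-601 CD133- replicate 1 (adjusted p = 0.0652). In KATO-III it read 3653.5 and 3914 against 3736 and 3478, and in SNU-216 4133 and 4282 against 4135 and 4264, and both pairs of fractions overlapped. Its change differed between the lines (adjusted p = 0.0124, limma's F-test).

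The inhibitory kinases did not move as a pair. PKMYT1 read 1516 and 1328 against 813 and 769 (CD133+ against CD133-) in KATO-III, 1571 and 1668 against 1609 and 1877 in SNU-216, and 408 and 419 against 319 and 374 in SNU-601. It rose in CD133+ cells of KATO-III (log2 change 0.84, limma adjusted p = 0.000221), was not called in SNU-601 (0.26, adjusted p = 0.129) or SNU-216 (-0.10, adjusted p = 0.561), and the changes differed between the lines (adjusted p = 0.00215). WEE1 read 894 and 963 against 759 and 928 in KATO-III, 3573 and 3497 against 3026 and 2872 in SNU-216, and 1362.5 and 1436 against 1540.2 and 1494 in SNU-601. Its CD133+ arrays lay above the CD133- arrays in SNU-216, below them in SNU-601, and overlapped them in KATO-III. No change of WEE1 passed the test, with log2 values of 0.15 in KATO-III (adjusted p = 0.237), 0.26 in SNU-216 (adjusted p = 0.0527) and -0.12 in SNU-601 (adjusted p = 0.452). In SNU-216 the value sat at the threshold, and its adjusted p was 0.0389 with a floor of 100 and 0.0496 with each array centred on its median.

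PLK1 changed in all 3 lines and not in one direction. It read 803 and 625 against 307 and 309.6 (CD133+ against CD133-) in KATO-III, and 791 and 683 against 409 and 467 in SNU-601. In SNU-216 it read 951 and 989 in CD133+ and 1429 and 1434 in CD133- cells. The fractions lay apart in every line, with CD133+ above in KATO-III and SNU-601 and below in SNU-216. The log2 change was 1.20 in KATO-III (limma adjusted p = 7.4e-05), 0.75 in SNU-601 (adjusted p = 0.0038) and -0.56 in SNU-216 (adjusted p = 0.00748), with a standard error of 0.12 each. The difference between the lines passed the test (adjusted p = 0.00015, limma's F-test), and in no fit that left out an array did any of the 3 changes lose its call.

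**Figure D2:**
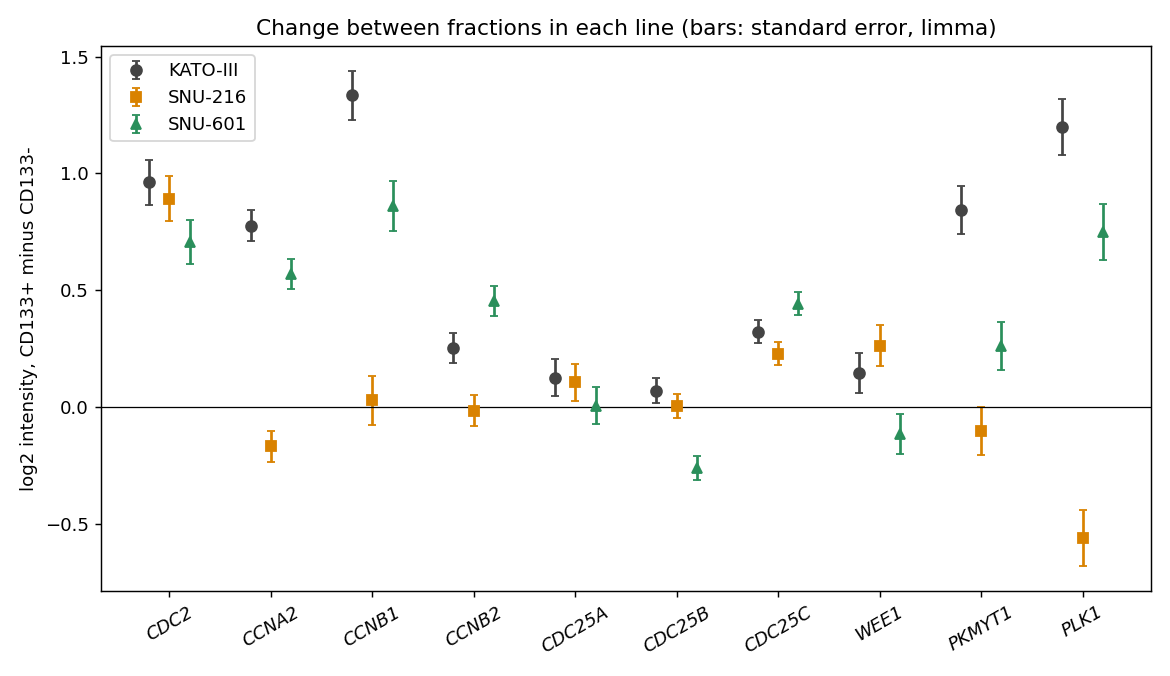
Log2 intensity in CD133+ minus CD133- cells (y axis) for CDC2 and each regulator in KATO-III (circles), SNU-216 (squares) and SNU-601 (triangles), with standard errors from limma on 12 arrays. CDC2, chosen for its difference between fractions, lies at 0.96, 0.89 and 0.71. PLK1 lies at 1.20, -0.56 and 0.75, and the cyclins lie near or under 0 in SNU-216 alone.

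Of the 9 regulators, 6 were called higher and 0 lower in CD133+ cells of KATO-III, where 39.3% of all tested genes were called, 18.7% higher and 20.6% lower. In SNU-216, where 28.6% of tested genes were called, 1 was higher (CDC25C, against 14.6% of all tested genes) and 1 lower (PLK1, against 14.0%). In SNU-601, where 16.4% were called, 5 were higher, against 8.59% of all tested genes, and 1 lower (CDC25B, against 7.78%). The median log2 change of the 9 was 0.32 in KATO-III, 0.00 in SNU-216 and 0.44 in SNU-601, where the median over all tested genes was 0 in each line. A line by fraction interaction was called for 6 of the 9 (CCNA2, CCNB1, CCNB2, CDC25B, PKMYT1 and PLK1), against 44.4% of all tested genes.

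Over all lines, with cell line as a block, 2 of the 9 were called higher in CD133+ cells, against 2.62% of all tested genes, and none lower, against 2.11% (4.73% in either direction). They were CDC25C (log2 change 0.33, standard error 0.0627, limma adjusted p = 0.0208) and CCNB1 (0.74, standard error 0.176, adjusted p = 0.0387), and 5 of the 9 had an unadjusted p under 0.05, as did 4941 of the 20147 tested genes. The remaining regulators had log2 changes of 0.46 (PLK1), 0.39 (CCNA2), 0.33 (PKMYT1), 0.23 (CCNB2), 0.10 (WEE1), 0.08 (CDC25A) and -0.06 (CDC25B), none of them called. CCNB1 lost its call in 9 of the 12 fits without 1 array, namely without any 1 array of KATO-III or SNU-601 or without SNU-216 CD133- replicate 2 (adjusted p between 0.0548 and 0.0977). CDC25C lost it without KATO-III CD133+ replicate 1 (adjusted p = 0.0548) or KATO-III CD133- replicate 1 (adjusted p = 0.0517). With both arrays of a population averaged first, limma called 0 genes (992 had an unadjusted p under 0.05, 1 of them a regulator), and the adjusted p of each regulator was at least 0.796. With the population as a random block, the lowest adjusted p of a regulator was 0.204, and 4 had an unadjusted p under 0.05, as did 2297 of the 20147 tested genes.

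Whether the regulators followed CDC2 was described by Pearson's r of log2 intensities over the 12 arrays, which share lines and populations, so no p is given. CCNB1 (r = 0.705), CCNB2 (0.622) and CDC25C (0.512) lay above 0.5, as did 4.66% of the other tested genes. The r was 0.43 for CCNA2, 0.33 for PLK1, 0.151 for WEE1, 0.0396 for CDC25A, -0.0133 for PKMYT1 and -0.208 for CDC25B. Their median was 0.33, against -0.00918 over all other tested genes. With every value centred on the mean of its line, r was highest for CDC25C (0.904), ahead of CCNB1 (0.787), CCNA2 (0.672), PKMYT1 (0.623) and CCNB2 (0.619). CDC2 was chosen for its difference between fractions. The r over the 12 arrays therefore also carries each gene's own difference between fractions, and its comparison with other tested genes is not independent of that difference. Values of r centred on the line or taken within a line largely restate each regulator's own difference between fractions. The share of all tested genes with such a centred or within-line r is not given. Within SNU-216, over only 4 arrays, r was -0.996 for PLK1 and -0.866 for CCNA2, while within KATO-III it was 0.968 and 0.978 and within SNU-601 0.935 and 0.983.

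**Figure D3:**
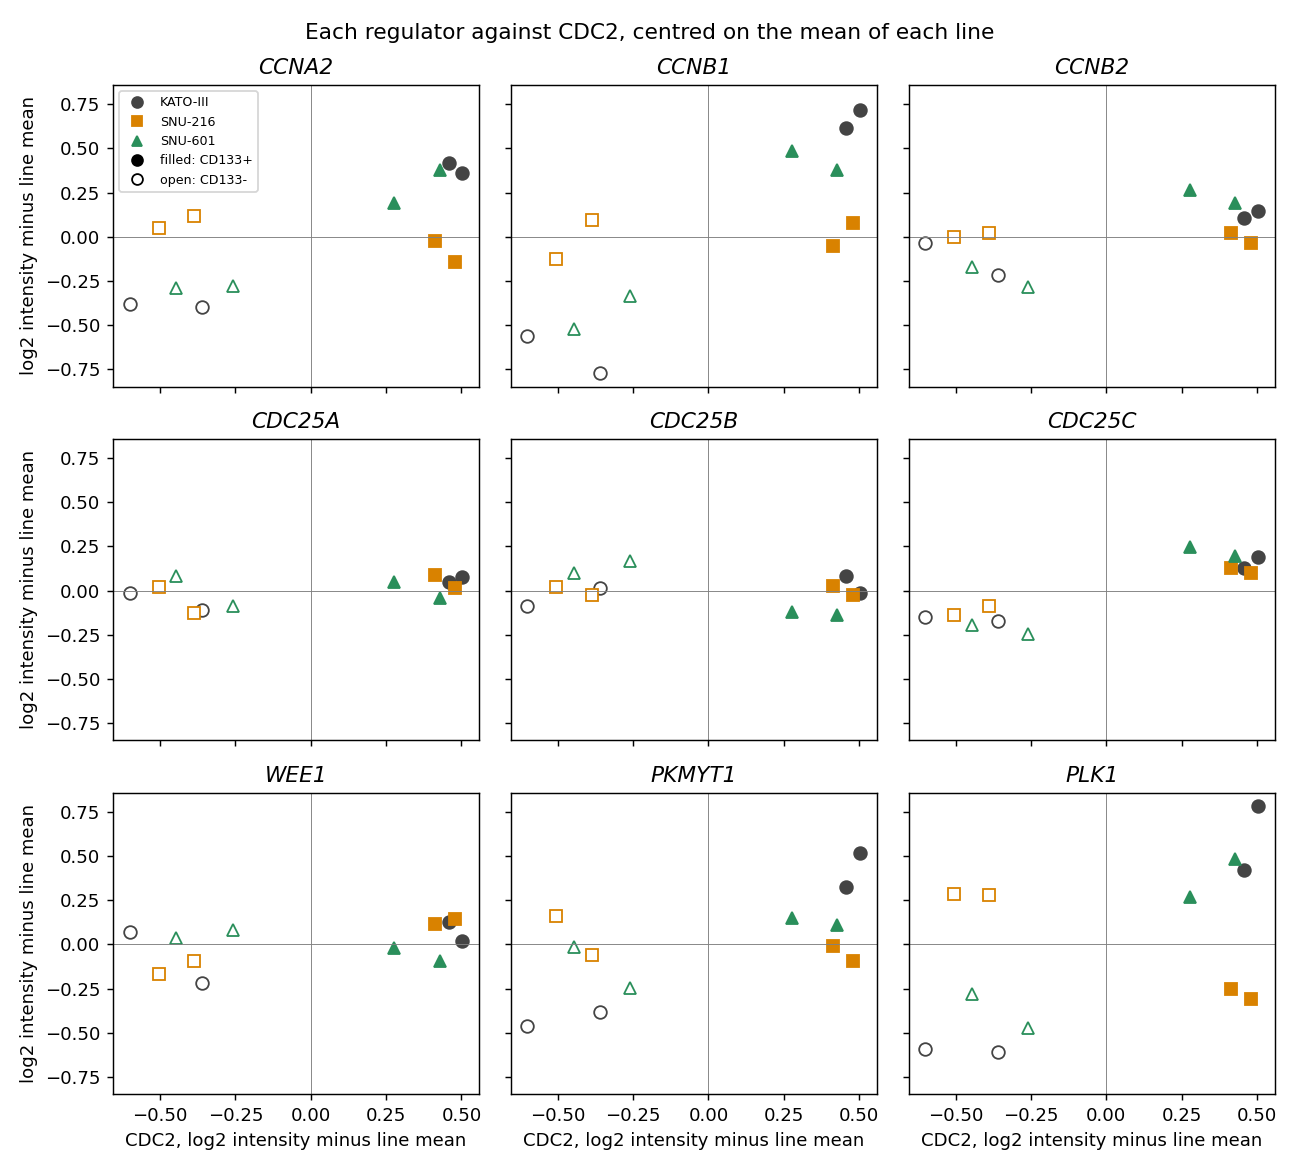
Log2 intensity of each regulator (y axis) against CDC2 (x axis), both minus the mean of the line, with filled symbols for CD133+ and open symbols for CD133- arrays. CDC25C rises with CDC2 in all 3 lines (r = 0.904 over 12 arrays), and in the panels of PLK1 and CCNA2 the squares of SNU-216 slope the other way.

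Among all 20146 other tested genes, those with the highest r to CDC2 over the 12 arrays were PIGH (0.928), an enzyme subunit of GPI anchor synthesis, KNTC1 (0.911), a kinetochore protein, WBP11 (0.902), a splicing protein, SRP9 (0.897), of the signal recognition particle, and FAM54A (0.892). The lowest r were those of LOC728944 (-0.92), POLR2C (-0.914), a subunit of RNA polymerase II, and C7ORF59 (-0.897). None of the 9 regulators came nearer than CCNB1, which ranked 141. PIGH lay between 378 and 385 in the CD133+ populations and between 246 and 304 in the CD133- populations, with a log2 change of 0.65 in KATO-III, 0.45 in SNU-216 and 0.33 in SNU-601. The same differences were 0.33, 0.20 and 0.29 for KNTC1 and -0.23, -0.22 and -0.20 for POLR2C. These genes were ranked by likeness to a gene chosen for its difference between fractions, so their own difference is part of that choice.

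Averaged over both fractions, the log2 level differed between lines for 7 of the 9 regulators (all but CCNB1 and CCNB2, limma's F-test), a share near the 72.3% of all tested genes. WEE1 averaged 3242 in SNU-216, 1458 in SNU-601 and 886 in KATO-III, and SNU-216 stood 1.87 above KATO-III on the log2 scale (standard error 0.0615). PKMYT1 averaged 1681 in SNU-216, 1107 in KATO-III and 379.7 in SNU-601 (log2 difference of SNU-601 from SNU-216 -2.15). PLK1 averaged 1201 in SNU-216, 587 in SNU-601 and 511 in KATO-III, and CCNA2 averaged 7967, 5105 and 4245 in the same order. CDC25C ran the other way at the top, with 1138 in SNU-601, 937 in SNU-216 and 484 in KATO-III. CDC2 averaged 1301 in KATO-III, 1419.7 in SNU-216 and 1564 in SNU-601. No test is given for it, since a gene that differs little between lines has a higher SNR and the SNR chose CDC2.

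The 5 lists of further genes around CDC2 were read in the same fits, 54 genes of which 50 were tested. Over all lines 7 of the 50 were called higher in CD133+ cells, against 2.62% of all tested genes, and none lower. None of the 7 was called with both arrays of a population averaged first or with the population as a random block, so each call over all lines named below rests on counting the arrays singly. In KATO-III 21 were higher and 12 lower, against 18.7% and 20.6% of all tested genes. In SNU-216 14 were higher and 7 lower, against 14.6% and 14.0%, and in SNU-601 19 were higher and 2 lower, against 8.59% and 7.78%. The line by fraction interaction was called for 33 of the 50, against 44.4%. The shares of genes called lower in KATO-III and in SNU-216 were near those of all tested genes.

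The partners of the kinase held 6 tested genes, and CCNA1 and CCNB3 were not tested. Over all lines 2 were higher, the small Cks subunits CKS2 and CKS1B, which bind CDC2 and its cyclin. CKS2 read 9259 and 8466 against 5558 and 5429 (CD133+ against CD133-) in KATO-III, 8798 and 8169 against 6498 and 6429 in SNU-216, and 3855.5 and 3584 against 2297 and 2528.5 in SNU-601. Its fractions lay apart in each line, and its log2 change was 0.69, 0.39 and 0.63, called in each (limma adjusted p at most 0.00236). CKS1B had log2 values of 0.07, 0.35 and 0.35 and was called in SNU-216 and SNU-601. CCNH and MNAT1, which with CDK7 form the kinase that activates CDC2, were called higher in KATO-III, with log2 values of 0.78 and 1.56. In SNU-216 CCNH was called (0.56) and MNAT1 was not (0.50, adjusted p = 0.110), and in SNU-601 neither was (-0.12 and -0.34).

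Of the 8 inhibitors and checkpoint genes, 3 were higher over all lines, the checkpoint kinases CHEK1 (log2 change 0.43, limma adjusted p = 0.0148) and CHEK2 (0.43, adjusted p = 0.0229), which restrain CDC25, and CDKN3 (0.39, adjusted p = 0.0214), a phosphatase that inactivates CDKs. CDKN1A, the CDK inhibitor p21, behaved differently in KATO-III from the other lines. It read 145 and 183 in CD133+ and 1459.8 and 1433 in CD133- cells there, a log2 change of -3.15 (limma adjusted p = 1.6e-07). In SNU-216 it read 1372 and 1450.5 against 1005 and 969.8, higher in CD133+ cells (0.51, adjusted p = 0.00312), and in SNU-601 7638 and 7545 against 6533 and 6579 (0.21, adjusted p = 0.171). Its change differed between the lines (adjusted p = 1.6e-06).

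Of the 11 genes of mitotic entry, 1 was higher over all lines. MASTL, the kinase that shields CDC2 substrates from phosphatase PP2A, read 511 and 495 against 327 and 361 (CD133+ against CD133-) in KATO-III, 338 and 316 against 239 and 196 in SNU-216, and 591 and 593 against 401.5 and 456 in SNU-601. Its log2 change was 0.55, 0.60 and 0.47 and was called in each line, with no call for a difference between them (adjusted p = 0.786, limma's F-test). C13ORF34, also named BORA, which helps activate PLK1, rose by 0.58 in KATO-III (adjusted p = 0.00248) and stood at 0.16 and 0.18 in SNU-216 and SNU-601, not called. FOXM1, a transcription factor of G2 genes, rose by 0.44 in KATO-III (adjusted p = 0.0112) and stood at 0.13 in SNU-216 and 0.02 in SNU-601, not called. MYBL2 was above the floor on 11 arrays and was not called in any line.

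The list of cyclin destruction held 18 tested genes, with UBE2S left untested. It covers the anaphase-promoting complex with its activators and restraint, and also BTRC and FBXW11, which lie outside that complex. FBXO5, which restrains that complex, was the single gene higher over all lines (log2 change 0.39, limma adjusted p = 0.0318), with 0.68 in KATO-III, 0.10 in SNU-216 (not called) and 0.40 in SNU-601. UBE2C, the E2 enzyme of the complex, had the same order, 0.39, -0.07 (not called) and 0.37. ANAPC10 rose by 0.79 in KATO-III and 0.22 in SNU-216 and stood at 0.11 in SNU-601, not called. FZR1 was above the floor on 9 arrays and was not called in any line. The 7 tested interphase CDKs and cyclins had no call over all lines. CCNE2, the cyclin of S phase entry, rose by 0.42 in KATO-III and 0.68 in SNU-216 and stood at 0.04 in SNU-601, not called. CDK2 was called higher in SNU-216 alone (0.45, adjusted p = 0.00168), CDK4 in no line, and CCND3 fell in KATO-III (-0.59) and rose in SNU-601 (0.31).

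**Figure D4:**
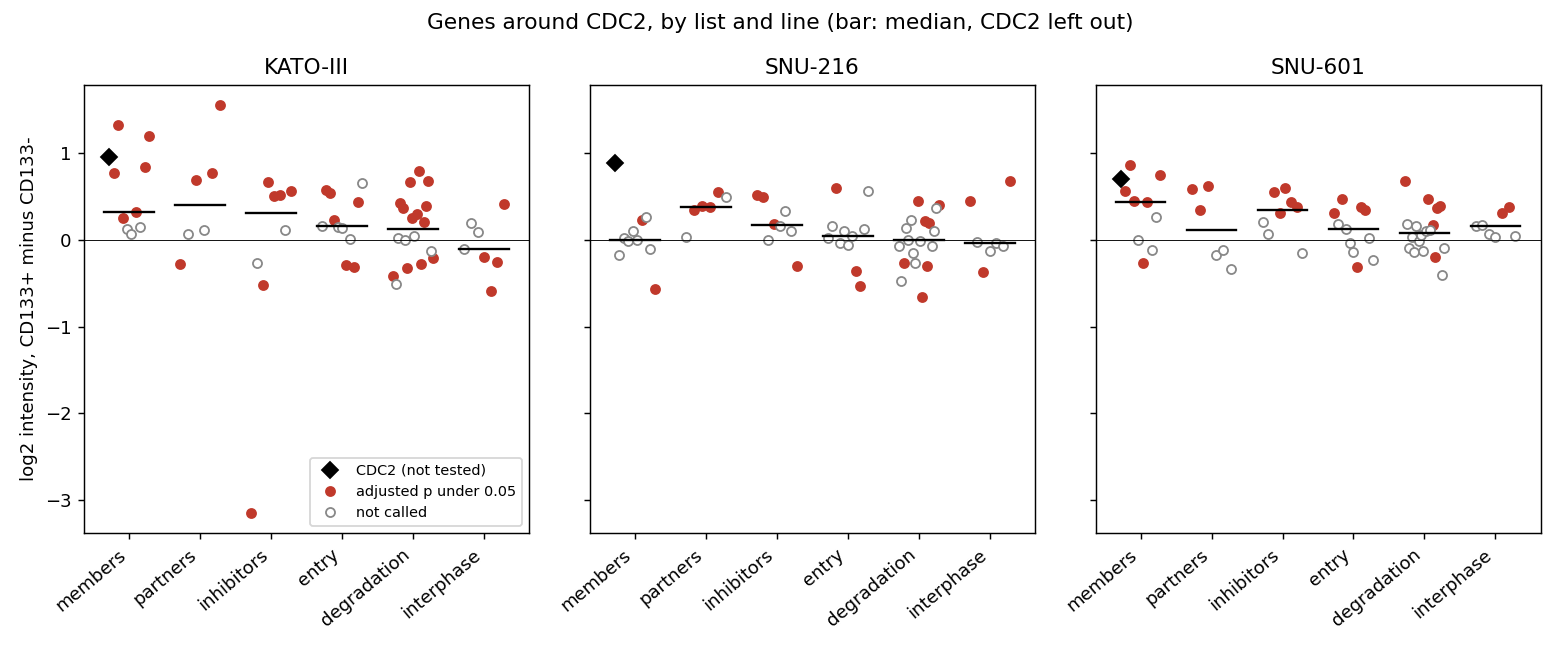
Log2 intensity in CD133+ minus CD133- cells (y axis) by line for the 10 genes (members) and the 5 lists around them, with filled points for an adjusted p under 0.05, open points for genes not called, a diamond for CDC2, which was not tested, and a bar for the median without CDC2. The median of the 9 regulators is 0.32, 0.00 and 0.44 in KATO-III, SNU-216 and SNU-601, and the point at -3.15 in KATO-III is CDKN1A.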

How the data were processed

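RNA of 6 sorted populations was hybridized by the authors to Illumina HT-12 v3 BeadChips, with 2 arrays per population and 12 in all. The authors deposited quantile-normalized intensities with a background subtracted, on a linear scale, with 1 row per gene symbol. BeadStudio is named in the labels, while its version and the way probes were combined are not given in the sources used here. Of 34688 rows, 93 were empty, and 32.1% of values were at or below 0.

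Values below 32.7, the absolute value of the lowest percentile, were raised to that floor before log2 was taken. Testing covered the 20147 genes that exceeded it on 2 or more arrays. All 10 members were above it on all 12 arrays (lowest intensity 307). For fractions over all lines, limma 3.58.1 (R 4.3.3) was fitted with a term for the line and with its intensity trend (8 residual degrees of freedom). Within-line changes, their differences and line levels were tested in a model with 6 population means (6 residual degrees of freedom), at a Benjamini-Hochberg adjusted p of 0.05 over all tested genes. Python 3.11.15 (numpy 2.4.6, pandas 2.3.3) gave the other values. The number of arrays, 2 per population, limits the precision. The members, lists and tests were chosen with earlier results of these data known. The text names the 10 members, up to 4 tested genes of each list with the largest change over all lines, the 5 genes with the highest and the 3 with the lowest r to CDC2, PROM1 and the cell type markers. A further leukocyte marker is not reported here. The limma script was tested on simulated data. Alternatives covered the floor, the offset, the normalization, the filter, the trend, the treatment of replicates and leaving out each array.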

Additional observations from a re-analysis of the deposited data

Results flagged for a closer look

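The change between CD133+ and CD133- cells differed between the 3 lines for 6 of the 9 regulators, by limma's F-test of the line by fraction interaction. The same test called 44.4% of all tested genes. The adjusted p was 0.00015 for CCNA2, 0.000431 for CCNB1, 0.00794 for CCNB2, 0.0124 for CDC25B, 0.00215 for PKMYT1 and 0.00015 for PLK1. For CCNA2, CCNB1, PKMYT1 and PLK1 the change in SNU-216 minus that in KATO-III was -0.95, -1.31, -0.945 and -1.76 on the log2 scale. For CCNB2 it was -0.27, which was not called (limma adjusted p = 0.0538). CDC25B was lower in CD133+ cells of SNU-601. These tests rest on the spread of 2 arrays within each population.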

How the results depend on the processing

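Over all lines 2 of the 9 regulators were called. The count was 1 without a trend in limma (adjusted p of CCNB1 0.0502) and 1 with the replicate block, and 0 with the arrays of a population averaged first or under a random block for population. Its range was 0 to 2 without single arrays. For the 5 lists the count of 7 genes called over all lines fell to 0 with averaging and with the random block, and lay between 4 and 8 without single arrays. Under the replicate block CCNB1 had an adjusted p of 0.0626, and no other call of a member changed. The deviations of same-numbered arrays had r between -0.0116 and 0.0276 over 15 pairs of populations. No large shift shared by replicate number showed, but this cannot exclude that same-numbered samples were paired. The counts of regulators called within KATO-III (5 to 7), SNU-216 (2 to 3) and SNU-601 (5 to 6) stayed within 1.5 times of their values under the alternatives run. The same held for the count with a line by fraction interaction (5 to 7). Without single arrays, some log2 changes close to 0 turned their sign. WEE1 in KATO-III ranged from -0.000149 to 0.2909, and in SNU-216 CCNB1 ranged from -0.0828 to 0.138, CCNB2 from -0.0447 to 0.0122, CDC25B from -0.0231 to 0.0282 and PKMYT1 from -0.214 to 0.00897. CDC25A in SNU-601 ranged from -0.0797 to 0.0894. WEE1 in KATO-III was called without CD133- replicate 2 (0.29, adjusted p = 0.0134). The change of CDC2 in KATO-III was 1.08 without CD133- replicate 1 and 0.84 without CD133- replicate 2. On the given strand alone, CCAAT was met in windows of 5 members in place of 8. Signal over background did not limit the members, all of which were above the floor on all arrays.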
